A study of Mus musculus with 20 samples.

Results

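The genes of oxidative phosphorylation were followed across 5 genotypes of mouse embryonic stem cells, which differed in Trim71. TRIM71 is a protein of the TRIM family that binds messenger RNA and is made in early embryos and stem cells; the cells had it intact, deleted, or in the R595H form. Members were taken by name from the deposited table of 13283 gene symbols: every symbol starting with mt-, and the nuclear symbols of the Nduf, Sdh, Uqcr, Cox4 to Cox8 and Atp5 families. The name rule found 86 genes, of which 7 lie in the mitochondrial genome and 79 in the nucleus. The nuclear members comprised 35 of complex I, 4 of complex II, 8 of complex III, 16 of complex IV and 16 of complex V, with Ndufa4 and Ndufa4l2 counted in complex IV. Of the 13 protein-coding genes that GENCODE places on the mouse mitochondrial chromosome, mt-Nd1, mt-Nd2, mt-Nd4, mt-Nd5, mt-Nd6, mt-Co1 and mt-Cytb were members, and the other 6 were not analysed here.

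All cells were of C57BL/6 strain and male per the labels, and their medium combined fetal calf serum and LIF with 2i, kinase inhibitors that hold mouse stem cells in the naive state. In the conditional system, 4 libraries of cells with floxed Trim71 alleles (Trim71-cond) stood against 4 of cells deleted for the gene (Trim71-KO), with the codes 1A, 2B, 3A and 3B in each group. The clonal system consisted of 3 wild-type clones (WT: C16, C7, C5), 3 heterozygous clones (R595H/+: C15, C21, C23) and 3 homozygous clones (R595H/R595H: C14, C20, C24), with 12 libraries, since C16, C15 and C14 were sequenced from 20/1 and again from 5/2. Both libraries of such a clone were averaged. The labels name neither the agent that deleted the floxed gene, nor the deleted part, nor separate deletions, so p-values of the conditional system reflect library-to-library spread only, and that may be technical. Each clonal line stems from 1 clone.

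Oxidative phosphorylation passes electrons from NADH and succinate through complexes I to IV to oxygen, and complex V (ATP synthase) uses the resulting proton gradient to make ATP. The subunits come from both genomes: the mitochondrial chromosome encodes core membrane subunits of complexes I, III, IV and V, and is transcribed from both strands as long precursors that are cut into single messengers, while nuclear genes encode the remaining subunits and all of complex II. Naive stem cells of the mouse are known to use respiration as well as glycolysis. The comparisons asked how far each genome's share of this machinery moved with loss of TRIM71 and with R595H, which the title of the series sets side by side.

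Trim71 itself lay between 8.93 and 9.01 in the Trim71-cond libraries and between 7.43 and 7.53 in the Trim71-KO libraries (deposited log2 values), and among the clones from 9.48 to 9.54 in WT libraries and from 9.51 to 9.63 in R595H/+ libraries. All R595H/R595H libraries were higher than these, from 10.00 to 10.18. Of 10 stem cell markers, 9 passed the filter of a mean of 3.32 (10 on the linear scale). Their summed linear level ran from 8920 to 9607 in Trim71-cond, from 9918 to 10659 in Trim71-KO, from 9867 to 11209 in WT, from 9639 to 10835 in R595H/+ and from 10023 to 11183 in R595H/R595H. Of 8 feeder or fibroblast markers 2 were in the table and neither passed; summed, they reached at most 16.2 in any library. Of 6 trophectoderm markers 4 were in the table and 3 passed (Krt8, Krt18 and Tfap2c), with sums from 112 to 137 in Trim71-cond, 99.1 to 114 in Trim71-KO and 93.7 to 136 in the clones. The part of these differences in the results below was not tested. Library depth is unknown from values of this kind. The Trim71-cond and Trim71-KO libraries of code 1A stood apart from the others: their deviations from their group means, over all genes tested, were correlated at -0.89, where the other same-coded pairs gave values from -0.12 to 0.13. Results of the conditional system are therefore also given without both 1A libraries, a setting chosen after the data were seen.

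Levels were first placed on a scale per length, as the log2 value minus the log2 of the exon length in kilobases (all annotated exons of a gene in GENCODE vM21 merged; 85 of 86 members matched, Atp5o did not). On this scale mt-Co1, the catalytic subunit of complex IV, was the highest member in all 5 groups, from 13.47 in Trim71-cond to 13.86 in Trim71-KO. The complex I subunit mt-Nd1 came next among the mitochondrially encoded genes, from 11.13 in Trim71-cond to 11.57 in R595H/R595H, and mt-Nd4 was the lowest of them, from 8.25 to 8.56. Among nuclear members the catalytic beta subunit of ATP synthase, Atp5b, was highest in every group (9.65 to 9.88), followed by the alpha subunit Atp5a1 (9.57 to 9.68). The median of 78 nuclear members lay between 6.61 and 6.70 in the 5 groups. By complex, the medians over groups were 6.15 in complex I, 6.69 in complex II, 7.52 in complex III, 7.53 in complex IV and 6.69 in complex V. At the low end stood Cox7b2, a testis form of a complex IV subunit, Ndufa4l2, and Atp5l, the g subunit of ATP synthase. The place of Atp5l depends on its merged exons of 6443 bases, against 542 for Cox7b2 and 1095 for Ndufa4l2. Its deposited value in Trim71-cond was 3.91, above Cox7b2 at 0.62 and Ndufa4l2 at 1.67. Within a group, the median SD of a member was 0.15 for the 7 mitochondrially encoded genes, 0.11 for the nuclear ones and 0.12 for all genes, and it reached 0.54 for mt-Nd6.

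In Trim71-KO cells 2 of the 7 mitochondrially encoded messengers rose and none fell, while 6 of the 7 had positive differences. Genes were called where limma gave a Benjamini-Hochberg adjusted p under 0.05 over all 9580 genes tested. The 2 called, mt-Co1 and mt-Nd4, were both higher, where 9.24% of all genes tested were called higher and 9.37% lower. The median difference of the 7 was 0.39 on the log2 scale, against 0.00 for all genes tested and 0.01 for the 77 nuclear members tested.

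The gene mt-Co1 lies at 5328 to 6872 of the mitochondrial chromosome (GRCm38, plus strand) and mt-Nd4 at 10167 to 11544. For mt-Co1 the libraries read 14.06 (1A), 14.14 (2B), 13.93 (3A) and 14.27 (3B) in Trim71-cond. In Trim71-KO they read 14.44 (1A), 14.53 (2B), 14.43 (3A) and 14.54 (3B), so all 4 lay above all 4 controls. This rise was 1.31-fold (0.39 ± 0.05, SE, n = 4 against 4; adjusted p = 6.82e-05), and 0.39 (adjusted p = 0.000391) without both 1A libraries. Quantile normalization, in contrast, set the difference to 0, since mt-Co1 held rank 2 of the table, behind Lars2, in every conditional library and this scaling gives equal ranks equal values. Leaving out any 1 library kept the call (adjusted p up to 0.00106).

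The complex I subunit mt-Nd4 read 8.81 (1A), 8.68 (2B), 8.64 (3A) and 8.89 (3B) in Trim71-cond. The Trim71-KO libraries read 8.93 (1A), 9.27 (2B), 8.82 (3A) and 9.07 (3B), and the groups overlapped through Trim71-KO 3A and Trim71-cond 3B. It was 1.21-fold higher (0.27 ± 0.08, SE, n = 4 against 4; adjusted p = 0.0181), and 0.32 higher (adjusted p = 0.0139) without the 1A libraries. The call was lost without Trim71-cond 3A, Trim71-cond 2B, Trim71-KO 2B or Trim71-KO 3B (adjusted p up to 0.0749), and also with eBayes run without trend and robust settings.

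**Figure D1:**
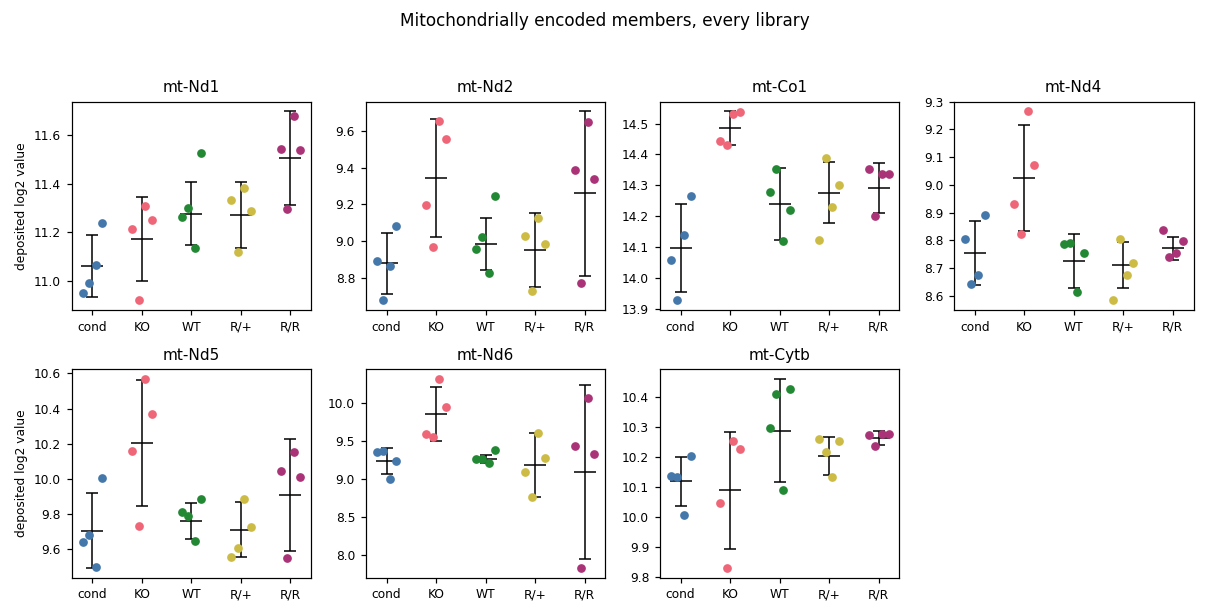
Deposited log2 values of the 7 mitochondrially encoded members in all 20 libraries (points; R/+ and R/R are R595H/+ and R595H/R595H), with the mean and SD over 4 libraries or 3 clones (bars); each panel has its own axis. The 4 Trim71-KO libraries lie above all Trim71-cond libraries for mt-Co1 and mt-Nd6, and mt-Nd6 spreads from 7.82 to 10.06 within R595H/R595H.

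A larger difference without a call was seen for mt-Nd6, the complex I subunit encoded alone on the other strand. The Trim71-cond libraries read 9.35 (1A), 8.99 (2B), 9.37 (3A) and 9.23 (3B). In Trim71-KO they read 9.59 (1A), 10.32 (2B), 9.56 (3A) and 9.95 (3B), again without overlap. The difference was 0.62 ± 0.19 (SE, n = 4 against 4) with an adjusted p of 0.0633. For mt-Nd2 the difference was 0.47 ± 0.16 (adjusted p = 0.0746), and with the replicate code as a block it passed the test (adjusted p = 8.14e-06). That p rests on a variance moderated by eBayes over all genes, and the same-coded differences were not tested alone. The pairing by code is itself uncertain, since only Trim71-KO 3B correlated best with the control of its own code. The libraries of mt-Nd2 read 8.89 (1A), 8.86 (2B), 8.67 (3A) and 9.08 (3B) in Trim71-cond. In Trim71-KO they read 9.19 (1A), 9.65 (2B), 8.97 (3A) and 9.56 (3B), so the groups overlapped. The difference of mt-Nd5 was 0.50 ± 0.20 (adjusted p = 0.14). These 3 genes had the widest spreads among Trim71-KO libraries, with SDs from 0.32 to 0.36, and 3A was the lowest and 2B the highest library for each. Smaller values were found for mt-Nd1, at 0.11 ± 0.07 (adjusted p = 0.311), and for mt-Cytb, the catalytic subunit of complex III, at -0.03 ± 0.07 (adjusted p = 0.805). Both count and identity of the calls turned on single libraries: 6 of the 7 were called without Trim71-KO 3A, 5 without Trim71-cond 3B, and 1 without Trim71-cond 2B, Trim71-cond 3A or Trim71-KO 3B. Over all genes, the main fit called 1783, and these settings called 1464, 1463, 1291, 1343 and 1440 in the same order.

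The ends of mt-Nd5 and mt-Nd6 are shown because the messengers overlap there on opposite strands, and the library kit named in the labels does not mark strand. In GENCODE vM21 (GRCm38), mt-Nd5 lies at 11742 to 13565 of the mitochondrial chromosome on the plus strand and mt-Nd6 at 13552 to 14070 on the minus strand. The last 44 bases of each coding sequence follow, 5′ to 3′, with the 14 shared bases (13552 to 13565) in capitals.
mt-Nd5: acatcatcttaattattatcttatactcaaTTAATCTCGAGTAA
mt-Nd6: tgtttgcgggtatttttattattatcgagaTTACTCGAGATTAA
Reads of antisense RNA to either gene cannot be told apart from reads of the gene, so the values of mt-Nd6 and of its neighbours are those of both strands. Nuclear copies of mitochondrial DNA and processed pseudogenes of nuclear subunits could share reads as well, and how the authors counted them is not given in the sources used here.

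In the clones none of the 7 was called in R595H/R595H against WT, where 2.19% of 9587 genes were called higher and 1.23% lower, and 1 of the 7 (mt-Nd1, higher) had an unadjusted p under 0.05, which 10.7% of all genes had with a higher and 10.4% with a lower value. Their median difference was 0.05, with values from -0.18 for mt-Nd6 to 0.28 for mt-Nd2. Clone values of mt-Co1 had means of 14.24 ± 0.12 in WT, 14.28 ± 0.10 in the heterozygous and 14.29 ± 0.08 in the homozygous clones (SD, n = 3 clones each), and the 3 ranges overlapped. For mt-Nd1 the means were 11.28 ± 0.13, 11.27 ± 0.14 and 11.51 ± 0.19, and the difference of R595H/R595H from WT was 0.23 ± 0.10 (SE; adjusted p = 0.207). The heterozygous clones differed from WT by -0.08 to 0.04 in these genes, with 0 called.

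The R595H/R595H clones did not form a tight group in this genome. For mt-Nd6, C20 read 7.82, C14 9.43 (20/1) and 9.33 (5/2), and C24 10.06, whereas the WT libraries lay between 9.21 and 9.37. Without C20 the difference of mt-Nd6 from WT changed from -0.18 to 0.46 (adjusted p = 0.284), and that of mt-Nd2 went from 0.28 to 0.52, past the test (adjusted p = 0.0341).

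Values under the symbol Lars2, which names the nuclear gene of mitochondrial leucyl-tRNA synthetase, moved with part of this spread. Lars2 was the most abundant symbol in 18 of the 20 libraries and held from 0.334% (C20) to 13.2% (C24) of the back-transformed sum. Which RNA gave the reads counted under this symbol was not tested, so its values are not read as the level of the synthetase messenger. After centring on group means, mt-Nd6 correlated with Lars2 over 17 libraries or clones at r = 0.92 (permutation within groups, p = 0.00046, adjusted over 9 relations 0.00414) and rho = 0.88 (p = 8e-05). Without the 2 clones farthest from the median of Lars2, C20 and C24, r was 0.77. The same r was 0.75 for mt-Nd2 (adjusted permutation p = 0.0275; 0.50 without these clones), 0.68 for mt-Nd1 (0.0275; 0.53) and 0.60 for mt-Nd5 (0.03; 0.40). For mt-Cytb, mt-Nd4 and mt-Co1 it was 0.20, 0.02 and -0.01, and for the mean of the nuclear members 0.15, with adjusted permutation p from 0.297 to 0.959. These values average the dates of a clone, and within a clone the relation was not close. From 20/1 to 5/2, Lars2 changed by 2.28 in C16, -0.92 in C15 and -0.12 in C14. Over the same dates mt-Nd6 went from 9.27 to 9.37 in C16, from 9.10 to 9.28 in C15 and from 9.43 to 9.33 in C14. Lars2 itself differed by -0.31 ± 0.38 (SE) between Trim71-KO and Trim71-cond (adjusted p = 0.628) and by 0.60 ± 1.54 between R595H/R595H and WT (adjusted p = 0.869). Its part in the values of the mitochondrially encoded genes was not tested.

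The balance of the 2 genomes within a library had a higher mean in Trim71-KO than in Trim71-cond, with overlapping groups, and most of this lay in the mitochondrially encoded members. The mean of the 77 nuclear members was 7.30 ± 0.02 in Trim71-cond, 7.28 ± 0.03 in Trim71-KO (SD, n = 4 libraries each), 7.27 ± 0.05 in WT, 7.25 ± 0.03 in heterozygous and 7.28 ± 0.02 in homozygous clones (SD, n = 3 clones each). The mean of the 7 mitochondrially encoded members was 10.26 ± 0.11 in Trim71-cond and 10.60 ± 0.23 in Trim71-KO (SD, n = 4 libraries each). The mean of the 7 mitochondrially encoded members minus the nuclear mean is not a level per length and is read only between groups. It read 2.98 (1A), 2.84 (2B), 2.91 (3A) and 3.12 (3B) in Trim71-cond, and 3.21 (1A), 3.61 (2B), 3.02 (3A) and 3.42 (3B) in Trim71-KO. The groups overlapped only in that Trim71-KO 3A fell below Trim71-cond 3B, and the means differed by 0.35, or by 0.39 without both 1A libraries. In the clones this balance was 3.09 ± 0.16 for WT, 3.08 ± 0.08 for R595H/+ and 3.16 ± 0.30 for R595H/R595H (SD, n = 3 clones each). Its difference of 0.07 between R595H/R595H and WT was within the spread, and became -0.05 without C24, -0.02 without WT C5 and 0.24 without C20. No test was made of this mean over members. As shares of the back-transformed sum, the mitochondrially encoded members held 1.17% to 1.47% in Trim71-cond, 1.59% to 1.76% in Trim71-KO and 1.36% to 1.62% in the clones, and the nuclear members 1.07% to 1.29% in all libraries.

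**Figure D2:**
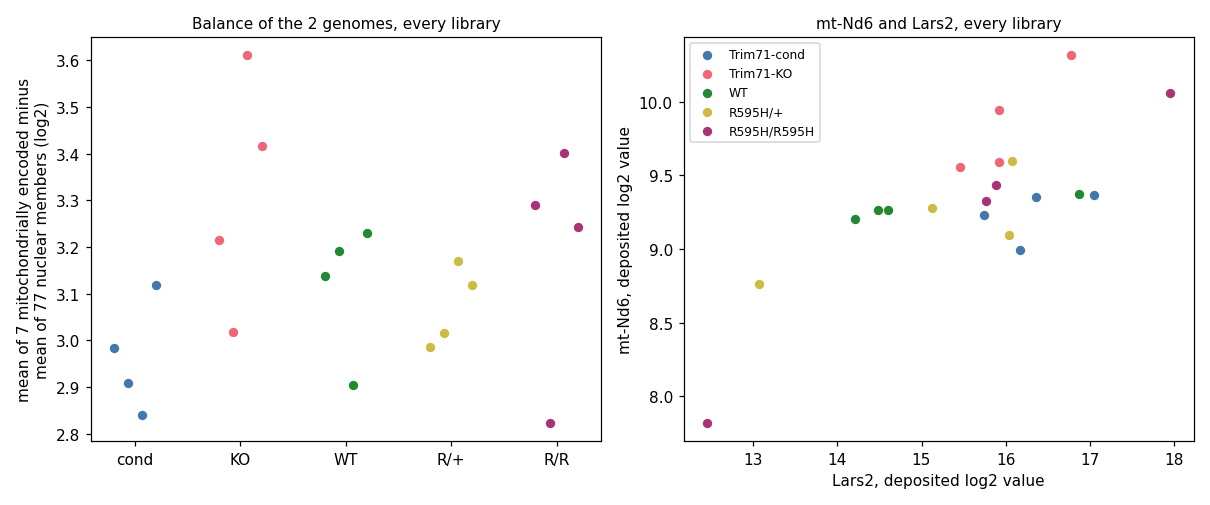
Left: mean of the 7 mitochondrially encoded minus mean of the 77 nuclear members (log2) in each library by group; Trim71-KO libraries run from 3.02 to 3.61 and Trim71-cond libraries from 2.84 to 3.12. Right: deposited log2 values of mt-Nd6 against Lars2 in the 20 libraries; R595H/R595H C20 is lowest and C24 highest of the clones in both genes.

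Nuclear subunits were called in both directions in Trim71-KO, but the rises were lost in several alternatives. Of the 77 tested, 8 fell and 3 rose (Cox7b2 and Ndufa4l2 were below the filter), against the 9.37% lower and 9.24% higher of all genes given above. The falls included at least 1 subunit of every complex: Ndufa2, Ndufa9 and Ndufs1 of complex I, Sdhd of complex II, Uqcrh of complex III, Cox7a1 of complex IV, and Atp5j2 and Atp5b of complex V. The rises were Ndufc1 of complex I, Cox6c of complex IV and Atp5s, a coupling factor gene counted with complex V. The groups did not overlap for 4 nuclear members higher and 9 lower, where 10.6% and 10.2% of all genes did so. Medians were 0.01 for complex I, -0.09 for II, 0.02 for III, 0.05 for IV and -0.09 for V, and every complex but II held members of both signs. Without both 1A libraries 8 nuclear members were called, all of them lower, and Ndufa9, Ndufs1, Ndufc1, Atp5s and Cox6c were no longer among them. Over all genes 740 were then called higher and 756 lower. No nuclear member was called higher without Trim71-cond 1A, Trim71-KO 1A, Trim71-cond 3A or Trim71-cond 2B either.

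**Figure D3:**
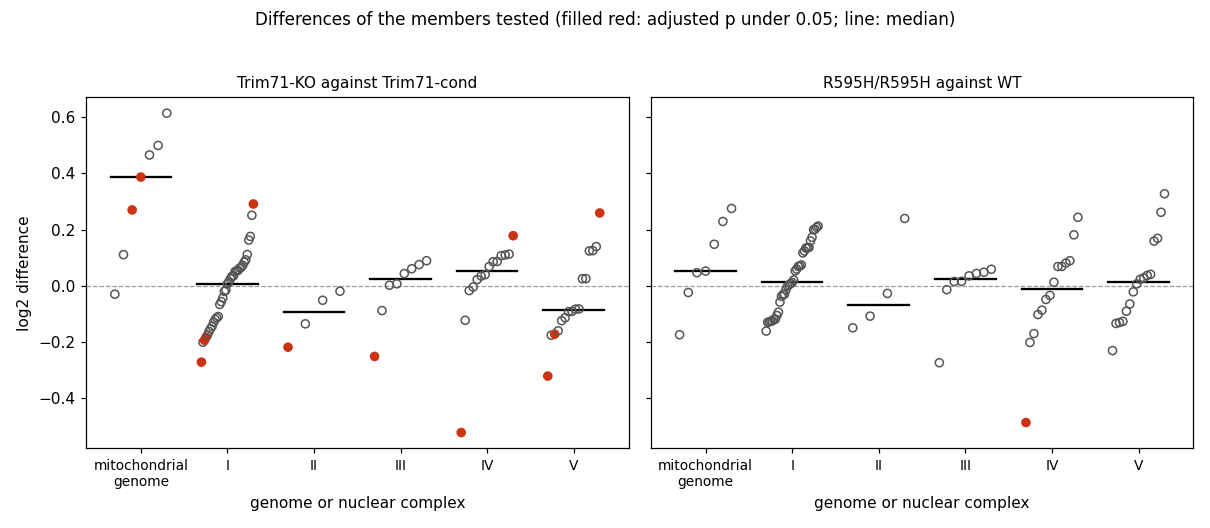
Log2 differences of the members tested (points), by genome and nuclear complex, for Trim71-KO minus Trim71-cond (left) and R595H/R595H minus WT (right); filled points passed an adjusted p of 0.05 and the lines are medians. The mitochondrially encoded members have a median of 0.39 on the left and 0.05 on the right, while the nuclear complexes lie around 0.

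The largest nuclear difference was that of Cox7a1, which encodes the form of a small complex IV subunit that is typical of heart and skeletal muscle and lies at chr7:30184144-30186078 (plus strand, GRCm38). In Trim71-cond it read 5.16 (1A), 5.11 (2B), 5.23 (3A) and 5.12 (3B). In Trim71-KO it read 4.63 (1A), 4.53 (2B), 4.72 (3A) and 4.65 (3B), with every library below every control. The fall was 1.44-fold (-0.52 ± 0.08, SE, n = 4 against 4; adjusted p = 0.000189; -0.52 without the 1A libraries, adjusted p = 0.00117). In the clones it read 5.01 and 5.12 in C16 (20/1, 5/2), 4.85 in C7 and 5.20 in C5 of WT. The heterozygous clones read 4.91 and 4.81 in C15, 4.74 in C21 and 4.93 in C23, and the homozygous ones 4.55 and 4.57 in C14, 4.43 in C20 and 4.67 in C24. All homozygous clones lay below all WT clones, and heterozygous clones lay between 4.74 and 4.93, overlapping WT. Cox7a1 was the only member called in R595H/R595H against WT (-0.49 ± 0.10, SE, n = 3 against 3 clones; adjusted p = 0.0242), a fall of 1.40-fold. As a count, 1 of 77 nuclear members tested is near the 1.23% of all genes called lower. That call was lost when C16 or C5 of WT, or C14 or C20 of R595H/R595H, was left out (adjusted p up to 0.0942), and it held on the 5/2 libraries alone (adjusted p = 0.0311). The heterozygous clones stood between both at 4.84 ± 0.09 (SD, n = 3), against 5.04 ± 0.17 in WT and 4.55 ± 0.12 in R595H/R595H. The widely expressed paralogue Cox7a2 read 8.49 ± 0.04 in Trim71-cond and 8.53 ± 0.08 in Trim71-KO (difference 0.03 ± 0.06, SE; adjusted p = 0.713). In the clones, however, Cox7a2 was lower too, though not called. It read 8.58 (C16), 8.68 (C7) and 8.66 (C5) in WT and 8.49 (C14), 8.37 (C20) and 8.55 (C24) in R595H/R595H. The heterozygous clones read 8.49 (C15), 8.50 (C21) and 8.43 (C23), also below all WT clones.

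**Figure D4:**
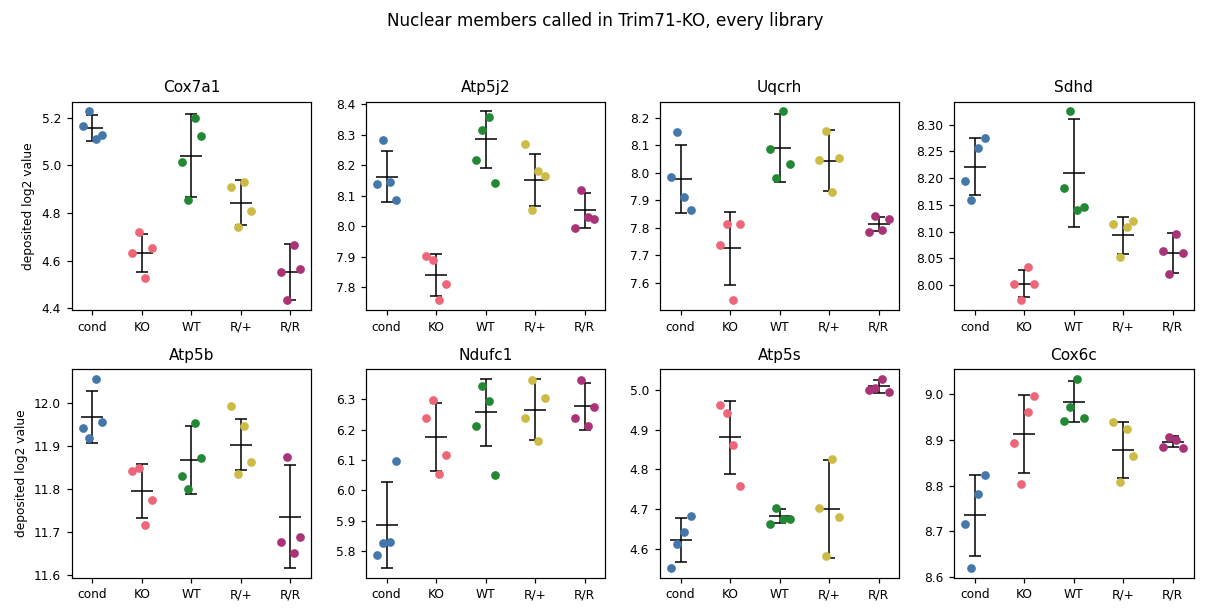
Deposited log2 values of 8 nuclear members called in Trim71-KO, in all 20 libraries (points), with the mean and SD over 4 libraries or 3 clones (bars); each panel has its own axis. Cox7a1 lies lower in Trim71-KO and in R595H/R595H than in every library of Trim71-cond and WT, and Ndufc1 differs between the conditional groups but not visibly between the clones.

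In complex V, Atp5j2, the f subunit of the membrane part of ATP synthase (chr5:145183698-145192062, minus strand), read 8.14 (1A), 8.15 (2B), 8.28 (3A) and 8.08 (3B) in Trim71-cond and 7.90 (1A), 7.76 (2B), 7.89 (3A) and 7.81 (3B) in Trim71-KO. All Trim71-KO libraries were lower, by 1.25-fold (-0.32 ± 0.06, SE; adjusted p = 0.00125). In R595H/R595H the difference from WT was -0.23 ± 0.08 (adjusted p = 0.102), with all 3 clones below all 3 WT clones. The catalytic subunit gene Atp5b, at 11.97 ± 0.06 in Trim71-cond and 11.79 ± 0.06 in Trim71-KO (SD, n = 4 each), fell by 0.17 ± 0.04 (adjusted p = 0.00842; no longer called, at 0.0783, with eBayes run without trend and robust settings), and the difference in R595H/R595H was -0.13 ± 0.07 (adjusted p = 0.324). Atp5s, in contrast, rose from 4.62 ± 0.06 to 4.88 ± 0.09 (difference 0.26 ± 0.08, SE; adjusted p = 0.0342), but missed the threshold with the replicate block (adjusted p = 0.0836) and without the 1A libraries (0.212). In the R595H/R595H clones Atp5s read between 4.99 and 5.03 in all libraries and in WT between 4.66 and 4.70, a difference of 0.33 ± 0.09 with an adjusted p of 0.0505.

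In complex II, Sdhd, which anchors succinate dehydrogenase in the membrane (chr9:50596357-50603812, minus strand), read 8.20, 8.26, 8.16 and 8.28 in Trim71-cond 1A, 2B, 3A and 3B and 8.00, 8.03, 7.97 and 8.00 in the same order in Trim71-KO. The fall of 0.22 ± 0.06 (SE; adjusted p = 0.00971) held under each of the 16 alternatives run. The other 3 complex II genes also had negative values, down to -0.14 for Sdhb (adjusted p = 0.189). In complex III, Uqcrh, the hinge protein that helps cytochrome c1 meet cytochrome c, read 7.98, 7.91, 8.15 and 7.86 in Trim71-cond and 7.74, 7.54, 7.81 and 7.81 in Trim71-KO, in that order of codes. It fell by 0.25 ± 0.07 (adjusted p = 0.0211), with the lowest control just above the highest Trim71-KO library. In R595H/R595H it differed from WT by -0.27 ± 0.08 (adjusted p = 0.0784), again with no overlap between the clones. The remaining 7 complex III members had values from -0.09 to 0.09 in Trim71-KO.

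In complex I, the iron-sulfur subunit Ndufs1 fell by 0.18 ± 0.06 (SE; adjusted p = 0.0285), the accessory subunit Ndufa9 fell by 0.19 ± 0.07 (0.0442) and Ndufa2 fell by 0.27 ± 0.09 (0.041). Ndufa9 and Ndufa2 missed the threshold with the replicate block, at adjusted p of 0.0855 and 0.0546. The accessory subunit Ndufc1 rose by 0.29 ± 0.09 (adjusted p = 0.0233): it read 5.79, 5.83, 5.83 and 6.10 in Trim71-cond 1A, 2B, 3A and 3B and 6.24, 6.05, 6.30 and 6.12 in Trim71-KO. Trim71-cond 3B overlapped Trim71-KO 2B, and without the 1A libraries the adjusted p was 0.131. In complex IV, Cox6c rose by 0.18 ± 0.06 (adjusted p = 0.0393), and its value in R595H/R595H was -0.09 ± 0.07 (adjusted p = 0.472). When 1 library at a time was left out, Cox7a1, Atp5j2, Sdhd and Atp5b kept their calls in all 8 cases, Uqcrh lost its call in 2, Ndufs1 in 4, Ndufc1 in 5, and Ndufa2, Ndufa9, Cox6c and Atp5s in 6 each (adjusted p up to 0.133). With eBayes run without trend and robust settings, Uqcrh, Ndufs1, Ndufa2, Ndufa9 and Cox6c lost their calls beside Atp5b.

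Beyond Cox7a1 no nuclear member passed the test in the main fit of R595H/R595H against WT, where 2.19% of all genes were called higher and 1.23% lower. Atp5s passed with eBayes run without trend and robust settings, with the clone as a random block and with only the 2 genotypes compared. It also passed with equal totals that left out mitochondrially encoded genes and Lars2, and without R595H/+ C21 or C23, but not in the other alternatives. Uqcrh passed with the random block only. The median of the 77 nuclear members was 0.01 against 0.00 for all genes. An unadjusted p under 0.05 was found for 11 of the 77, 6 of them higher and 5 lower. Of all genes tested, 10.7% had such a p with a higher and 10.4% with a lower value, so these counts were not above the general shares. The clones did not overlap for 9 members higher and 9 lower, where 14.3% and 15.4% of all genes did so. The largest uncalled values besides those given were Atp5d, the delta subunit of ATP synthase (0.26, adjusted p = 0.126), and the complex IV subunit Cox6b1 (0.24, adjusted p = 0.152). Over all genes the split of calls, 210 higher and 118 lower, turned to 72 and 85 when libraries were scaled to equal back-transformed totals, and to 254 and 96 when mitochondrially encoded genes and Lars2 were left out of these totals.

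R595H/+ differed from WT in 0 of the 84 members tested, and 0% of all 9587 genes passed. An unadjusted p under 0.05 was reached by 4 nuclear members and 0 mitochondrially encoded ones, where 7.66% of all genes reached it. The smallest p was that of Cox7c, at -0.23 ± 0.08 (adjusted p = 0.567), and Cox7c stood at -0.20 ± 0.08 in R595H/R595H against the same WT clones (adjusted p = 0.166). R595H/R595H against R595H/+ likewise gave 0 calls among members, where 0.772% of all genes were called; 8 members had an unadjusted p under 0.05, against 18.7% of all genes. Values closest to the threshold were those of Atp5s (0.31 ± 0.09, adjusted p = 0.0891) and of Ndufa13, a complex I subunit also known as GRIM-19 (0.30 ± 0.09, adjusted p = 0.097). R595H/+ enters both comparisons, so these are not independent.

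Whether a member's change in Trim71-KO differed from that in R595H/R595H was tested in a fit of both systems, which have no library in common. No member passed, where 1.42% of all 9585 genes did, and 11 members had an unadjusted p under 0.05, against 17.4% of all genes. The smallest p belonged to mt-Co1, whose difference of differences was 0.34 ± 0.09 (SE; adjusted p = 0.0631). For Cox7a1 it was -0.04 ± 0.13 (adjusted p = 0.918), and for mt-Nd6 0.79 ± 0.58 (adjusted p = 0.515). Cell origin and handling were not the same in both systems and cannot be told apart from genotype here. Of the 11 nuclear members called in Trim71-KO, 10 had the same sign in R595H/R595H and Cox6c had the opposite sign; of 1774 genes called in Trim71-KO and tested in both, 1313 (74.0%) had the same sign. Across the 77 nuclear members the differences in both systems were correlated at r = 0.43 and rho = 0.28, and across all 9531 genes tested in both at r = 0.37 and rho = 0.33; across the 7 mitochondrially encoded members r was -0.14 and rho -0.04, with the same sign in 6. These are correlations across genes, which are not independent replicates.

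**Figure D5:**
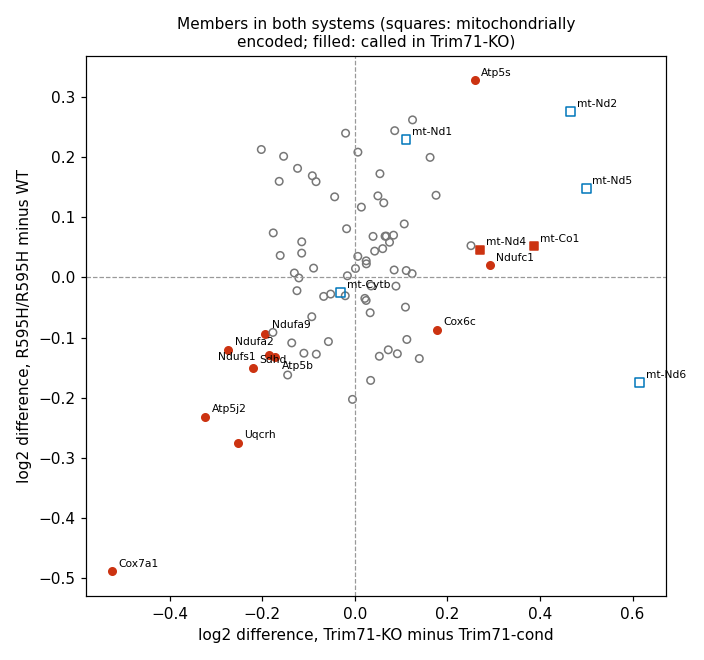
Log2 difference of each member in R595H/R595H against WT (vertical) and in Trim71-KO against Trim71-cond (horizontal); squares are mitochondrially encoded, filled points were called in Trim71-KO. Cox7a1 lies at the lower left in both, at -0.52 and -0.49, and mt-Co1 and mt-Nd4 lie to the right near the horizontal axis.

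Several subunits exist in paralogous forms used in different tissues. Cox6b1 and the testis form Cox6b2 both passed the filter, at 7.88 ± 0.06 and 5.63 ± 0.17 in Trim71-cond, and their differences in Trim71-KO were 0.09 (adjusted p = 0.324) and 0.11 (0.48). Cox7b read 8.26 ± 0.09 and Cox7b2 0.62 ± 0.06 in the same group. Ndufa4 read 8.23 ± 0.10 and its paralogue Ndufa4l2 1.67 ± 0.12, below the filter in every library. The c subunit of ATP synthase, the rotor ring, is encoded by 3 genes with the same mature product: Atp5g3 read 8.46 ± 0.06, Atp5g1 7.22 ± 0.14 and Atp5g2 3.92 ± 0.16 (SD, n = 4 Trim71-cond libraries each). None of the 3 was called in Trim71-KO, at -0.12, -0.16 and -0.09 (adjusted p from 0.173 to 0.531), and the conditional and WT cells both showed the order Atp5g3, Atp5g1, Atp5g2. Without both 1A libraries Atp5g1 was among the calls. Reads of such near copies may have been split between genes, so their levels are uncertain.

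Some subunits carry names that the rule does not catch. Of 4 such genes in the table, 1 was called higher and 2 lower in Trim71-KO, where 9.24% of all genes tested were called higher and 9.37% lower. The list was short and was chosen with earlier results of these data known, so its count is not a rate for the pathway. Ndufab1, the mitochondrial acyl carrier protein of complex I, rose by 0.42 ± 0.07 (SE; adjusted p = 0.000465). The 2 small ATP synthase subunits fell, Usmg5 by 0.36 ± 0.09 (0.00686) and 2010107E04Rik by 0.25 ± 0.09 (0.0445). Cyc1, cytochrome c1 of complex III, stood at -0.20 ± 0.07 (adjusted p = 0.0648). In R595H/R595H these 4 had the same signs with none called, at 0.29, -0.36, -0.24 and -0.11 in that order (adjusted p from 0.0893 to 0.494).

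Counts in the other lists of the pathway are read against the shares of all genes called in Trim71-KO, 9.24% higher and 9.37% lower. The tricarboxylic acid cycle and pyruvate dehydrogenase list had 5 of 24 tested genes lower and 1 higher in Trim71-KO, with a median of -0.05. The falls were led by Pdp2, a phosphatase that activates pyruvate dehydrogenase (-0.48 ± 0.08, SE; adjusted p = 0.000607), and by the succinyl-CoA ligase subunit Suclg1 (-0.35 ± 0.08; 0.00537) and the mitochondrial isocitrate dehydrogenase Idh2 (-0.23 ± 0.06; 0.00849), while Dld, the shared dihydrolipoyl dehydrogenase, rose by 0.25 ± 0.06 (0.0053). Genes that express the mitochondrial genome had 4 of 38 lower and 2 higher, counts near or under those shares: Hsd17b10, a subunit of the mitochondrial RNase P that cuts the precursor RNA, fell by 0.28 ± 0.08 (0.0202), the elongation factor Tufm fell by 0.24 ± 0.07 (0.0263), and Pnpt1, an RNA-degrading enzyme, rose by 0.18 ± 0.05 (0.0201). Of 46 assembly factors 2 rose, led by the complex I factor Timmdc1 (0.31 ± 0.08; 0.0123), and 1 fell, the complex IV factor Coa3 (-0.30 ± 0.09; 0.0291), both under those shares. Of 26 genes for electron carriers and other entry points, Slc25a4, an ADP/ATP carrier, rose by 0.20 ± 0.06 (0.015) and Coq2 of coenzyme Q synthesis fell by 0.35 ± 0.11 (0.0233), again under those shares. Of 11 regulators of mitochondrial biogenesis tested, only Yy1 was called (0.19 ± 0.06; 0.0353), and Tfam, which packages and transcribes the mitochondrial genome, stood at 0.15 ± 0.07 (0.109). In R595H/R595H against WT, 2 genes of these 5 lists, which had 46, 38, 24, 26 and 11 genes tested with Tfam in 2 of them, were called, both higher, and this is no more than the 2.19% of all genes called higher: Acad9, a complex I assembly factor (0.42 ± 0.09; adjusted p = 0.022), and Coq9 of coenzyme Q synthesis (0.37 ± 0.09; 0.0441).

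Promoters are shown for the member called in both systems and for 4 others that were called in Trim71-KO, because they let a shared start-site motif be set beside opposite directions of change. The sequences are from RefSeq (GRCm38.p6), 5′ to 3′, from 100 bases before to 50 after the annotated start, and capitals mark matches, on either strand, to AAGATGGC (YY1), CCGGAAG (ETS or GABP) or GCGCATGCG (NRF1), which do not overlap one another here. Cox7a1 is at chr7:30184071-30184220 (plus), Atp5j2 at chr5:145191492-145191641 (minus), Ndufa9 at chr6:126849095-126849244 (minus), Ndufc1 at chr3:51408906-51409055 (minus) and Uqcrh at chr4:116075021-116075170 (minus).
Cox7a1: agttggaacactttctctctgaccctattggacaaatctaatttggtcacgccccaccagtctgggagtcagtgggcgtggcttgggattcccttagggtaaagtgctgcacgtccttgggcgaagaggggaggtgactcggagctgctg
Atp5j2: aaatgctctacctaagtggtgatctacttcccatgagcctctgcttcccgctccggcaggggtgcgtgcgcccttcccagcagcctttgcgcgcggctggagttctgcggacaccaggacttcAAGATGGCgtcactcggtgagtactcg
Ndufa9: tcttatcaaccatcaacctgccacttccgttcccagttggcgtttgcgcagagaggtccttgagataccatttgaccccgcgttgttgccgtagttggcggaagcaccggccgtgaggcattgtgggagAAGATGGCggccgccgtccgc
Ndufc1: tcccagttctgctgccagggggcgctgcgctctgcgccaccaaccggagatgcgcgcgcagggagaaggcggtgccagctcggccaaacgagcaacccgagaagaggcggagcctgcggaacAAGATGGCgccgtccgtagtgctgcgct
Uqcrh: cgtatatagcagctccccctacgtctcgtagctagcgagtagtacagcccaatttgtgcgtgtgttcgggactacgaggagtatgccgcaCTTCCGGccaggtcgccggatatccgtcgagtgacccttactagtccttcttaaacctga
AAGATGGC stands within the 50 bases after the start in Atp5j2 and Ndufa9, which fell in Trim71-KO, and in Ndufc1, which rose. Uqcrh holds the ETS match, on the other strand (CTTCCGG), and Cox7a1 holds none of the 3 in this window. Over the full 300 bases, promoter entries were found for 67 of the 79 nuclear members. AAGATGGC was present in 13.4% of these, against 4.5% of the 10531 other genes of the table and 2.7% of all 32851 promoters. GCGCATGCG was present in 11.9%, against 3.7% and 1.8%, and CCGGAAG in 22.4%, against 17.8% and 8.9%. A match describes letters and not a bound site. The letters ATG are part of AAGATGGC, and whether its matches lie where translation starts was not tested.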

How the data were processed

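The authors deposited a table of normalized values per gene symbol and library, on a scale read here as log2 (base 2 is inferred from DESeq2 and is not stated). Per the submitters' processing notes, CASAVA 1.8, STAR and DESeq2 were used; the sources used here do not name the genome build, annotation, counting or transformation. Values run from -0.65 to 17.96 with 1.58% below 0, so they cannot be turned back into counts. If low values were shrunk toward their mean, small genes' folds are understated. The plan had assumed linear values; the deposited log2 values were used as they are.

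limma 3.58.1 (R 4.3.3; lmFit, then eBayes with trend and robust) was run on all genes with a mean of at least 3.32: on 8 libraries for the conditional system, on 9 clone values for the clonal system and on both together for the difference of effects. Calls needed a p under 0.05 after Benjamini-Hochberg adjustment over all genes tested. The code was tested on simulated data. For the replicate block, conditional libraries of the same code were taken as pairs, which the labels do not state. Their day entry repeats the code's number, and 3A and 3B share that number. Deviations of same-coded libraries were correlated at -0.89 (1A), -0.09 (2B), -0.12 (3A) and 0.13 (3B). Only Trim71-KO 3B correlated best with the control of its own code, so the pairing is uncertain. Named were all mitochondrially encoded members, every nuclear member called, the member of smallest p per complex, paralogues, and up to 4 genes of other lists. Members, lists and rule were chosen with earlier results of these data known. Alternatives covered filters, scalings, eBayes settings, the replicate block, single dates, clone as a random block and leaving out each library or clone. Exon lengths and positions are from GENCODE vM21 and promoters from RefSeq; no value was taken from either.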

Additional observations from a re-analysis of the deposited data

Results flagged for a closer look

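In 20 items (the members described in the conditional system and the means of the mitochondrially encoded and nuclear members), each group of 4 libraries was checked for a library far from the other 3, which made 40 checks; chance flags about 1 in 20. Both results that stood out are single values. Ndufc1 read 6.10 in Trim71-cond 3B, with the other Trim71-cond libraries between 5.79 and 5.83. The mean of the nuclear members read 7.23 in Trim71-KO 2B, with the other Trim71-KO libraries between 7.29 and 7.30.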

How the results depend on the processing

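Of 247 alternative values of call counts and mean differences, 217 stayed within the limits set (1.5-fold for counts, 1 SD for means) and 30 moved. Of 429 alternative values of single members, 344 kept direction and side of the threshold. In Trim71-KO, 11 nuclear and 2 mitochondrially encoded members were called; without eBayes trend and robust settings these were 6 and 4, with the replicate block 8 and 3 (mt-Nd2 gained; Ndufa9, Ndufa2 and Atp5s lost; no other member's call changed), without both 1A libraries 8 and 2, and leaving out 1 library gave 5 to 10 and 1 to 6. Calls over all genes, 1783 in the main fit, were 1537, 1392 and 1496 in the first 3 of these settings, and 1291 to 1634 without 1 library. In R595H/R595H against WT, 1 nuclear member was called; the filter at a mean of 5, which drops Cox7a1, gave 0, equal totals without mitochondrially encoded genes and Lars2 gave 2, eBayes without trend or robust 2, the clone as a random block 3, only the 2 genotypes 2, and leaving out 1 clone 0 to 2 (mitochondrially encoded 0 to 1). Against R595H/+, the random block gave 1 nuclear call, and leaving out 1 clone 0 to 1 mitochondrially encoded calls. In the difference of effects, leaving out 1 library or clone gave 0 to 1 mitochondrially encoded calls.

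Sign changes met uncalled values only. In R595H/R595H, mt-Cytb read 0.023 under quantile normalization; leaving out 1 clone gave -0.12 to 0.037 for mt-Cytb, -0.66 to 0.46 for mt-Nd6, -0.0082 to 0.108 for mt-Co1 and -0.0094 to 0.078 for mt-Nd4. Over all alternatives, mt-Co1 in R595H/R595H against WT reached up to 0.51, from 0.05 in the main fit, and was called in none. In Trim71-KO, leaving out 1 library gave -0.085 to 0.056 for mt-Cytb. Except where stated, the cause was not tested. Equal library totals moved the share of higher calls over all genes by more than 10 points, from 74.3% to 57.9% against R595H/+ and from 51.5% to 68.6% in the difference of effects (38.6% when mitochondrially encoded genes and Lars2 were left out of the totals). Calls over all genes in R595H/R595H against WT, 328, became 157 with equal totals, 191 on 5/2 libraries and 67 to 541 without 1 clone; against R595H/+, 74 became 116 without a filter, 19 with equal totals, 213 with the random block, 1 with only the 2 genotypes and 7 to 80 without 1 clone; in the difference of effects, 136 became 83 on 5/2 libraries and 40 to 225 without 1 library or clone. Unknown depth limits what can be said of Cox7b2 and Ndufa4l2.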
